A study of Drosophila melanogaster with 3 samples.

Results

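Peaks of the CG15011 protein were examined at 10 fly genes for proteins of the muscle contractile apparatus, out of 13945 protein-coding genes. They were taken by symbol from the Ensembl release 115 annotation: Mhc, Mlc1, Mlc2, Prm, Tm1, Tm2, up, wupA, sls and bt. All 10 symbols matched a single gene. Chromatin immunoprecipitation followed by sequencing (ChIP-seq) had been carried out on 3 biological replicates of whole Drosophila melanogaster embryos, collected 0 to 24 hours after laying and of mixed sex. All came from 1 strain that stably carries CG15011 fused at its C terminus to green fluorescent protein (GFP), and chromatin had been sonicated to between 200 and 800 bp. The replicates form a single group with no other genotype or treatment, so no test between groups was possible and the values below are descriptions. Muscle is 1 of many tissues in these embryos, and which cells carried a given peak cannot be told apart in them.

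Each replicate has a list of 30000 peaks, as has the pool of the 3 replicates, and the authors' optimal set of 3237 peaks equals the strongest part of the pooled list. The deposited label of the pooled list calls it peaks and background, the input from which reproducible peaks were selected. Entries outside the optimal set are called peaks below but can include background. The replicate lists have the same length, and the same caution was applied to them. A peak is ranked by the authors' signal within its own list, with rank 1 the strongest, and signals of different lists are not on a known common scale. The summit is the position the authors give as the point of highest signal in a peak. A summit within 500 bp of an annotated transcription start site (TSS) was counted as a promoter summit. A summit inside a gene, outside its exons and outside the promoter window of every gene was counted as intronic. The number of reads behind a peak is unknown, because no list gives it. A text label of each library calls it an input control, while the antibody label names CG15011 and the deposited notes derive each list from that replicate and a separate control alignment, so the 3 libraries were read as immunoprecipitates.

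In striated muscle, thick filaments of myosin slide along thin filaments of actin. Myosin is built from heavy and light chains, and in insects the thick filament has a core of paramyosin. Tropomyosin and the troponin complex lie along the thin filament and make contraction depend on calcium, and giant titin-like proteins tie the filaments to the Z-disc. In the fly embryo these genes are switched on as muscle forms, in large part through the transcription factor MEF2, and many of them yield several isoforms through alternative promoters and splicing.

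Of the 10 genes, 2 had an optimal promoter summit, sls and Tm1, and 2 had an optimal intronic summit, Prm and Tm1. The corresponding shares over all protein-coding genes were 10.8% and 5.82%. Mhc, both myosin light chain genes, Tm2, both troponin genes and bt had no optimal peak at a TSS or inside the gene. Every one of the 4 optimal peaks had a matching peak in all 3 replicates, as had 96.1% of all optimal peaks, a share in large part built into the set.

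The windows within 100 bp of the summit are given here on the strand of the gene, 5′ to 3′, from the RefSeq copy of the Release 6 assembly (dm6), for the 4 optimal peaks and for the best pooled promoter peaks of Mhc and up, which stayed outside the optimal set. Capitals mark matches to any of 7 motifs described further below.

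sls promoter peak, chr3L:2115789-2115989, minus strand: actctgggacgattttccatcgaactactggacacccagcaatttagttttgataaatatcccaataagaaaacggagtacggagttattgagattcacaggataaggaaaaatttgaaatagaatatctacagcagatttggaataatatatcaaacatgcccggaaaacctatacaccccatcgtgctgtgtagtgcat
Tm1 promoter peak, chr3R:15280931-15281131, plus strand: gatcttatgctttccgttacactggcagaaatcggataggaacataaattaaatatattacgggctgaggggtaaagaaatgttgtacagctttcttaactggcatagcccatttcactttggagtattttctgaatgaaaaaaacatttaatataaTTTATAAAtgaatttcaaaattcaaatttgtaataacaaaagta
Tm1 intron peak, chr3R:15292402-15292602, plus strand: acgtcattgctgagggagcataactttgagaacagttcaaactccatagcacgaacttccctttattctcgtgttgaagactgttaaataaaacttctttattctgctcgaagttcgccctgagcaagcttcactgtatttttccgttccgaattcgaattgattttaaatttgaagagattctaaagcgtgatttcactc
Prm intron peak, chr3L:8741287-8741487, minus strand: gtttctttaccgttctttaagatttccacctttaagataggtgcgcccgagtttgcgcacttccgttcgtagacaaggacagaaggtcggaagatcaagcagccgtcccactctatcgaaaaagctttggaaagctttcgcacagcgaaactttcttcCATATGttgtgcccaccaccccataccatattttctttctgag
Mhc promoter peak, chr2L:16766684-16766884, plus strand: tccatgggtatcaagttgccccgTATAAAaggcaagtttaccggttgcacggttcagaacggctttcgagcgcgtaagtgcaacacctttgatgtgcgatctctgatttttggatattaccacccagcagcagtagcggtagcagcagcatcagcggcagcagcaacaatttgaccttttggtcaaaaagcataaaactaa
up promoter peak, chrX:13601586-13601786, minus strand: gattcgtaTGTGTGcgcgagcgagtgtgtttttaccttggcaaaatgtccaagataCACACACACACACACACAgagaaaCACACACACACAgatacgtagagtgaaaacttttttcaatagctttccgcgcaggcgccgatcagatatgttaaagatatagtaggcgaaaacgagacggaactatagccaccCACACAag

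The thin-filament gene Tm1 (FBgn0003721, 3R, 15278220 to 15308779, plus strand) encodes tropomyosin, in both muscle and non-muscle forms, and had more pooled summits than any other of the 10 genes, 11 of 44. It is annotated with 18 transcripts from 8 TSSs, the most TSSs of the 10 genes, and proteins of 161 to 711 amino acids. The optimal promoter peak (15280809 to 15281252) ranked 2846 of 3237 with a signal of 172.9. It ranked 2575, 3622 and 2142 in replicates 1, 2 and 3. It was thus outside the 3237 strongest peaks in replicate 2 and inside them in the other two. Its summit lay 340 bp upstream of TSS 2, inside the first intron of the transcript that starts at TSS 1. TSS 3 and TSS 4, which start 3 and 7 transcripts, were 501 and 519 bp from that summit and fell just outside the window.

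A second pooled peak overlapped the Tm1 promoter peak. Its summit, 122 bp upstream of TSS 2 and 301 bp upstream of TSS 4, ranked 3923 in the pooled list. The peaks holding it ranked 4283, 6624 and 2493 in replicates 1, 2 and 3. The only TSS cluster of Tm1 with a peak among the 3237 strongest of any replicate was therefore the one formed by TSS 2, TSS 3 and TSS 4. TSS 5, the start of a transcript for a protein of 678 amino acids, had a pooled summit 303 bp downstream at rank 3893, with ranks of 10808, 3437 and 4075 in replicates 1, 2 and 3. TSS 1, TSS 6, TSS 7 and TSS 8 had no summit within 500 bp in any of the 5 lists.

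The optimal intronic peak of Tm1 (15292280 to 15292723) had a signal of 198.2 and ranked 2305. Its summit lay 1556 bp downstream of TSS 8 and 14282 bp from TSS 1. It ranked 2683, 2159 and 4303 in replicates 1, 2 and 3, outside the strongest 3237 in replicate 3. Further intronic summits of Tm1 ranked 4100, 4143, 5073 and 29889 in the pooled list. The peaks ranked 4143 and 5073 overlapped and matched the same peak in replicate 3, at rank 5850. The peak ranked 4100 was found at 5500, 4729 and 5494, so the replicates placed it close together. The neighbouring tropomyosin gene Tm2 lies downstream of Tm1 on the same strand.

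**Figure D1:**
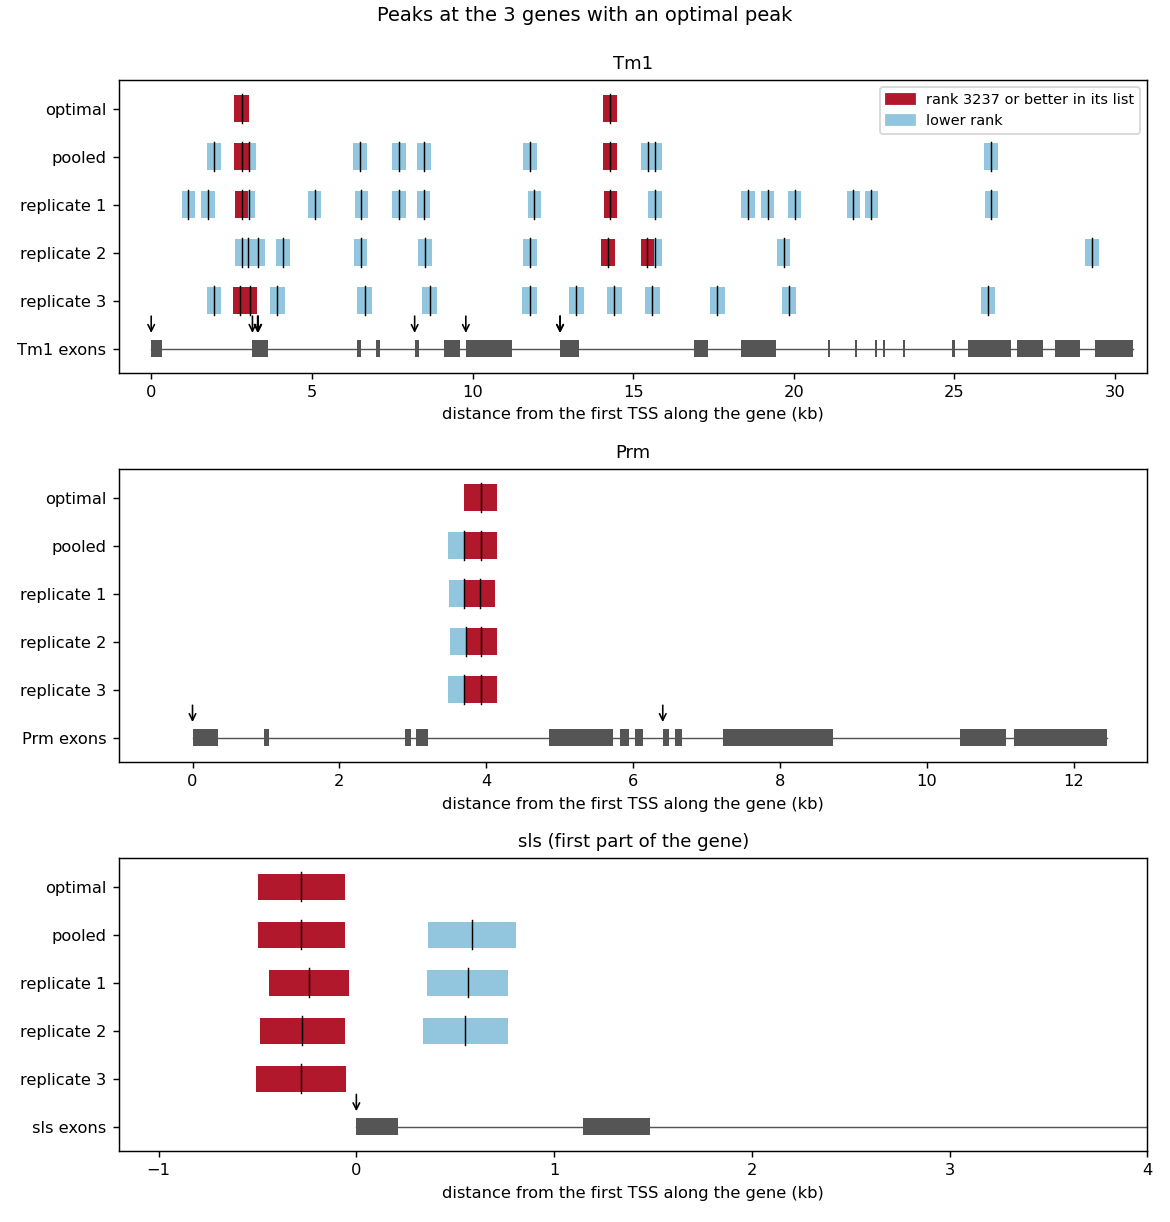
Peaks of the 5 lists (bars, with a black line at the summit) at Tm1, Prm and the start of sls, by distance in kb from the first TSS along the gene; dark boxes are exons, arrows are TSSs, and red bars are peaks ranked 3237 or better in their list. Tm1 carries peaks over much of its length, Prm overlapping intronic peaks in the pooled and replicate lists, and sls a peak upstream of its single TSS in all 5 lists.

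Tm2 (FBgn0004117, 3R, 15310193 to 15315197, plus strand) is the other tropomyosin gene. It has 5 annotated TSSs, and all of its transcripts encode proteins of 284 amino acids. No optimal or pooled promoter summit was found. Replicate 1 alone had a peak 288 bp downstream of TSS 5, at rank 6735, and replicate 2 alone one near TSS 1 to TSS 3, at rank 22475. Neither recurred at a TSS in another list, and the only pooled summit of the gene was intronic, at rank 14942. The optimal summit nearest to a Tm2 TSS was the Tm1 intronic one, 17691 bp upstream.

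The troponin genes had only weak peaks. The gene up (upheld, FBgn0004169, X, 13593474 to 13602578, minus strand) encodes troponin T, the tropomyosin-binding subunit, from 6 TSSs. Its best pooled promoter summit lay 32 bp upstream of TSS 4 and ranked 7859 (signal 89.1). That site ranked 6574 in replicate 2 and 17022 in replicate 3 and had no peak in replicate 1. Replicate 1 had its best up promoter peak near TSS 2 and TSS 3 instead, at rank 7583, where the best peaks of replicates 2 and 3 ranked 10763 and 23658. The replicates therefore differed in which start of up was ranked best.

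The gene wupA (wings up A, FBgn0283471, X, 18105568 to 18116922, minus strand) encodes troponin I, the inhibitory subunit, from 3 TSSs. It had no optimal or pooled promoter summit. Only replicate 1 had promoter peaks, and they were near the end of its list, at rank 24363 and lower. The single pooled summit was intronic and ranked 20587. Introns make up 82.6% of wupA, the highest share of the 10 genes.

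The thick-filament gene Mhc (FBgn0264695, 2L, 16766566 to 16788766, plus strand) is the single gene of the fly for muscle myosin heavy chain and has 21 transcripts from 5 TSSs. Its best pooled peak (16766562 to 16767005) had a signal of 118.9 and ranked 4920, outside the optimal set. The summit lay 50 bp downstream of TSS 2, from which 14 of the 21 transcripts start. This peak ranked 5440 in replicate 2 and 4222 in replicate 3 but 25141 in replicate 1. The word TATAAA began 27 bp upstream of TSS 2 on the sense strand, inside the window printed above. A weaker pooled summit between TSS 4 and TSS 5 ranked 14658 and had no matching peak in replicate 1. The 3 intronic pooled summits of Mhc ranked 11919, 13525 and 28739, and none was found in all replicates.

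Both myosin light chain genes are short, with 1 TSS each. Mlc1 (FBgn0002772, 3R, 27657078 to 27660177, minus strand) encodes the essential, or alkali, light chain. No list had a summit within 500 bp of its TSS. Its intronic pooled summit ranked 10499 and was missing from replicate 1. Mlc2 (FBgn0002773, 3R, 30171438 to 30174551, minus strand) encodes the regulatory light chain. A pooled summit 187 bp upstream of its TSS ranked 11867 (signal 71.0), with ranks of 12708 and 10461 in replicates 2 and 3 and no peak in replicate 1. Each gene also held a pooled summit in its last exon, at rank 26610 in Mlc1 and 7317 in Mlc2. These lay within 500 bp of a TSS of a neighbour, tau for Mlc1 and Rsod for Mlc2, and were counted as promoter summits of the neighbour. The one in Mlc2 was the best ranked pooled summit of that gene and had a match in all 3 replicates.

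Prm (FBgn0003149, 3L, 8732858 to 8745310, minus strand) encodes paramyosin of 879 amino acids from TSS 1 and shorter proteins of 307 to 640 amino acids from TSS 2, 6403 bp further down. No list had a summit within 500 bp of either TSS. The optimal intronic peak (8741165 to 8741608) had a signal of 179.7 and ranked 2674. It lay between both starts, 3923 bp downstream of TSS 1 and 2480 bp upstream of TSS 2. It ranked 2822, 2970 and 2860 in replicates 1, 2 and 3, the closest agreement of ranks among the 4 optimal peaks and inside the strongest 3237 of every replicate. A second pooled summit at rank 8472 overlapped it, and the gene had no other peak in any list.

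Of the titin-like genes, sls (sallimus, FBgn0086906, 3L, 2039681 to 2115611, minus strand) had the strongest peak of the 10 genes. It is annotated with 13 transcripts from a single TSS, and proteins of 4796 to 18468 amino acids. The optimal peak (2115667 to 2116110) ranked 1216 of 3237 with a signal of 294.9. It ranked 1072, 1153 and 2560 in replicates 1, 2 and 3, so replicate 3 placed it lower than the others. The summit lay 278 bp upstream of the TSS, and at 240, 274 and 278 bp upstream in replicates 1, 2 and 3. A further pooled summit 583 bp downstream of the TSS, in the first intron, ranked 20199 and was missing from replicate 3. The signal of the sls peak was close to the median of 284.0 over the 1384 optimal promoter peaks of all genes. The Tm1 promoter peak, at 172.9, was below that median. The intronic peaks of Tm1 (198.2) and Prm (179.7) were below the median of 230.6 over optimal intronic peaks, and the lowest optimal signal of any peak was 157.8.

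The gene bt (bent, FBgn0005666, 4, 724400 to 776474, plus strand) encodes projectin, the titin-like protein of the thick filament, from 3 TSSs. It had 9 pooled summits and none at a TSS, and no replicate had a peak within 500 bp of any of its TSSs. The best of the 9 ranked 14700, and none was found in all 3 replicates. The nearest optimal summit was 64324 bp away, the farthest of the 10 genes, at the promoter of gw.

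**Figure D2:**
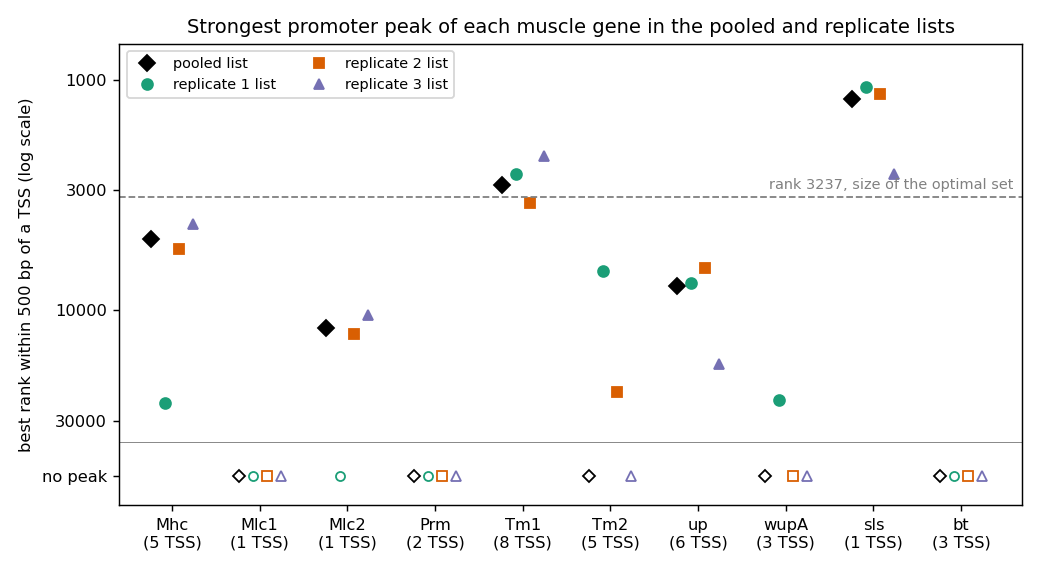
Best rank of a peak within 500 bp of any TSS of each gene (log scale, strongest at the top) in the pooled list and the 3 replicates; open symbols mark lists with no such peak and the dashed line is rank 3237. Only sls is above the line in all 4 lists, Tm1 is above it in all but replicate 2, and Mlc1, Prm and bt have no promoter peak in any list.

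Counted per start, 2 of the 35 distinct TSSs of the muscle genes had an optimal summit, against 9.90% of the 19607 TSSs of all protein-coding genes. Pooled summits lay at 12 of the 35 TSSs and at 5 of the 10 genes. Over all protein-coding genes the shares were 32.7% of TSSs and 33.3% of genes. Neighbouring TSSs share summits, so the starts of 1 gene are not independent. In the full replicate lists, 6, 6 and 5 of the 10 genes had a promoter summit in replicates 1, 2 and 3, against 38.0%, 35.5% and 35.1% of protein-coding genes. Over the 35 TSSs, 11 had a promoter summit in every replicate and 12 in none. All 11 belong to Mhc, Tm1, up and sls. The share over all TSSs was not computed. Any summit within 500 bp counted, so the peaks of the replicates need not be the same. At TSS 2 of up the summits lay 348, 40 and 485 bp downstream in replicates 1, 2 and 3, and the peaks of replicates 2 and 3 did not overlap.

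Genes with more starts had more chances of a promoter summit. The muscle genes had a median of 3 TSSs, against 1 for protein-coding genes. Among protein-coding genes with 1 TSS, 6.86% had an optimal promoter summit, and of the 3 muscle genes with 1 TSS it was sls alone. The share was 20.1% for genes with 2 to 4 TSSs, and none of Prm, wupA and bt had one. It was 47.4% for genes with 5 or more TSSs, and of Mhc, Tm1, Tm2 and up only Tm1 had one. With 3 or 4 muscle genes in a class, these counts do not separate the muscle genes from other genes with as many starts.

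**Figure D3:**
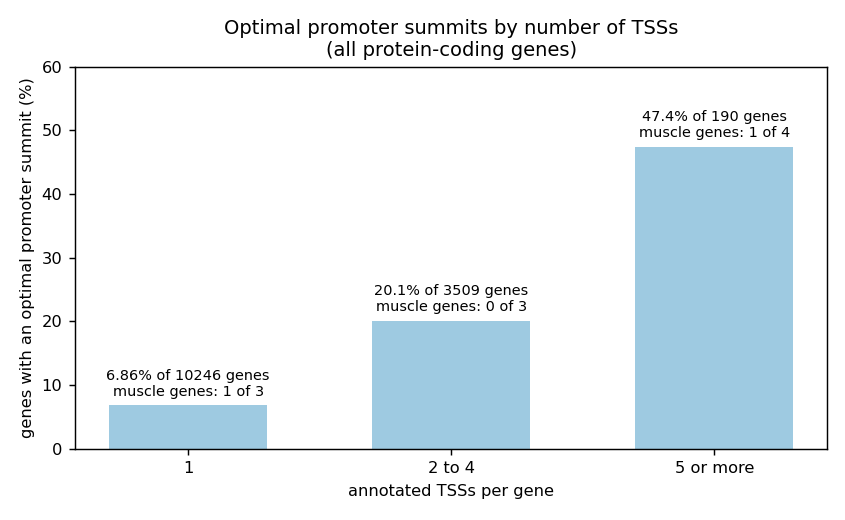
Percentage of all protein-coding genes that had an optimal promoter summit, by the number of annotated TSSs (bars), with the counts for the muscle genes written above each bar. The share goes from 6.86% with 1 TSS to 47.4% with 5 or more, while 1 of 3, 0 of 3 and 1 of 4 muscle genes had such a summit.

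The muscle genes also have long introns, with a median of 8237 bp per gene against 253 bp over protein-coding genes. Of the 7 muscle genes with 5 kb or more of intron, Prm and Tm1 had an optimal intronic summit, beside 30.5% of all protein-coding genes of that class. Per length of intron outside promoters, the muscle genes had 0.222 optimal summits per 10 kb, and all protein-coding genes 0.255. In the pooled list the rates were 2.11 and 2.62 per 10 kb. The muscle gene rates were 2.55, 2.33 and 1.89 in replicates 1, 2 and 3, beside 2.50, 2.63 and 2.53 over protein-coding genes, so their order was not the same in every replicate. By gene, the pooled rate went from 0 at Mlc2 to 8.13 per 10 kb at Tm2, with 0.634 at sls and 2.81 at Tm1. The rate at Tm2 rests on 1 summit in 1230 bp.

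Of the 40 pooled summits outside the optimal set, 7 were at a muscle gene promoter, 17 in introns, 13 in exons and 3 at the promoter of another gene. They ranked from 3893 to 29984. Matching peaks in all 3 replicates were found for 8 of the 40 (20.0%), beside 24.3% of all pooled peaks outside the optimal set, and 5 of these 8 were at Tm1. Counted outside every promoter window, the exonic summits were at bt (6), sls (5) and Tm1 (2), the 3 longest genes, and ranked 8428 or lower. Per length of exon outside promoters, the muscle genes had 1.14 pooled summits per 10 kb, and all protein-coding genes 0.751. In replicates 1, 2 and 3 the muscle gene rates were 1.76, 1.41 and 0.791, beside 1.08, 0.812 and 1.03, so they were higher in replicates 1 and 2 and lower in replicate 3. No optimal summit was exonic in the muscle genes, beside 0.0214 per 10 kb over protein-coding genes. The third summit at the promoter of another gene lay inside sls, at asRNA:CR42860, and was found in replicate 2 alone. None of the 9 promoter summits of muscle genes, optimal ones included, lay within 500 bp of the TSS of any other gene. These 9 came from 5 genes, with 4 of them at Tm1, and the corresponding share over all genes was not computed.

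**Figure D4:**
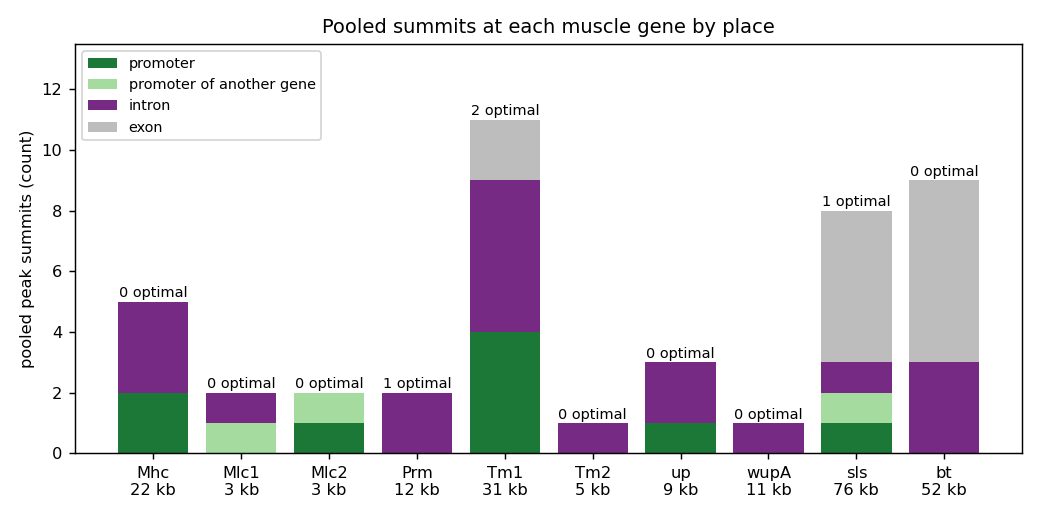
Number of pooled peak summits at each muscle gene, stacked by place, with gene lengths in kb under the names and the number of optimal peaks above each bar. Tm1 has 11 summits in 31 kb, bt 9 and sls 8 in longer genes and mostly in exons.

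The windows printed above were searched on both strands for GAGAG (the core of the GAGA factor site), TATCGAT (the core of the DREF site), CANNTG (the E-box), TATAAA, the MEF2 consensus, and the repeats CACACA and TATATA. The MEF2 consensus can share letters with TATAAA and with the TATATA repeat. Of the 4 optimal windows, that of Prm held 1 E-box, beside 59.3% of all 3237 optimal windows of the same 201 bp. The Tm1 promoter window held TATAAA on both strands within 1 stretch, beside 37.8% of optimal windows. The sls and Tm1 intron windows held none of the 7 motifs. No optimal window of a muscle gene held GAGAG, which was in 22.7% of all optimal windows, TATCGAT (4.26%), the MEF2 consensus (12.6%), the CACACA repeat (17.1%) or the TATATA repeat (19.4%). The best pooled window of up held 13 matches to CACACA over both strands, many of them overlapping in a CA repeat. Over the 40 other windows, the MEF2 consensus was in 6, beside 8.28% of all pooled windows outside the optimal set. GAGAG was in 12 of them (21.5% of all such windows), TATAAA in 12 (28.0%) and the TATATA repeat in 12 (16.4%). The E-box was in 22 (64.1%), the CACACA repeat in 6 (18.6%) and TATCGAT in 0 (2.69%). The GC content of the 4 optimal windows was 29.4% at the Tm1 promoter, 37.8% at sls, 38.3% at the Tm1 intron and 46.3% at Prm, around the median of 34.3% over all optimal windows.

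Other muscle genes (actins, troponin C genes, Z-disc, capping and attachment proteins) were counted from a list of 25, all matched. Optimal promoter summits were at 3 of them and optimal intronic summits at 3, with 5 genes having either kind and 12 having a pooled promoter summit. Over all protein-coding genes the shares were 10.8%, 5.82% and 33.3% for optimal promoter, optimal intronic and pooled promoter summits. No share was computed for either kind. The 3 genes with an intronic summit, Msp300, tmod and Zasp52, have 36316, 37979 and 43524 bp of intron. Of the listed genes, Mf, Zasp66, Zasp67, Actn, Unc-89, Strn-Mlck and sals also have 5 kb or more of intron, and none had an optimal intronic summit. Among protein-coding genes with 5 kb or more of intron the share with such a summit was 30.5%. Msp300, which encodes a nesprin, a large protein of the nuclear envelope, had 2 promoter summits, of which the stronger had a signal of 675.6 and ranked 268, stronger than any peak of the 10 genes, and 2 intronic summits at ranks 589 and 2936. The strongest ranked 332, 281 and 198 in replicates 1, 2 and 3, and the intronic one at rank 2936 ranked 2288, 3016 and 7328. The intronic peak at rank 589 overlapped the weaker promoter peak, at rank 2311, with summits 673 and 469 bp upstream of a TSS. The best-ranked match of both was the same peak in each replicate, at ranks 304, 904 and 778 in replicates 1, 2 and 3. Only the best match was kept, so whether a replicate held a second peak there was not examined. The promoter summit of TpnC47D, a troponin C gene, ranked 1711, and that of Act87E, an actin gene, ranked 2921 and was also near the start of lncRNA:CR45591. In replicates 1, 2 and 3 the TpnC47D peak ranked 1915, 2055 and 1959, and the Act87E peak 4947, 2092 and 5091. The intronic summit of tmod, the gene of the thin-filament capping protein tropomodulin, ranked 416, with ranks of 482, 487 and 377 in the replicates. Zasp52, a gene of a Z-disc protein, had intronic summits at ranks 1232 and 2472. The stronger ranked 1435, 1499 and 1122 in replicates 1, 2 and 3, and the weaker 5108, 2450 and 3428. Of 5 genes for non-muscle counterparts of these proteins, zip, sqh, Mlc-c, Act5C and Act42A, the cytoplasmic actin gene Act5C had a promoter summit, at rank 1068, 434 bp upstream of a TSS and also near lncRNA:CR45668.

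The nearest optimal summit was between 278 and 64324 bp from a TSS of the muscle genes, with a median of 16582 bp, beside 13377 bp over protein-coding genes. For Mlc1 it was the rank 32 peak at the promoters of CG5611 and Mtl, 23991 bp away, and for Mhc a rank 296 peak inside Cyt-c-p, 45696 bp away. Among 2788 other protein-coding genes with a promoter peak in every replicate, the ranks most like those of sls were at goe, with 1086, 1168 and 2591 in replicates 1, 2 and 3 and a summed difference of 0.05 on the log2 scale. The next were CG9849 and CNBP, each with ranks of 962, 1266 and 2605 from 1 shared peak and a summed difference of 0.32.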

How the data were processed

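Per the deposited notes, each replicate's peaks were called on its own alignment against 1 control alignment shared by all lists, the pooled peaks on the reads of all 3, and the optimal set came from these lists by thresholding the irreproducible discovery rate (IDR), on dm6. Caller, aligner, versions and IDR threshold: not given in the sources used here. Within a list, peaks were ranked by the authors' signal per peak, as deposited. The deposited −log10 q-value broke ties. Summits came from the deposited offset, and the midpoint stood in for 2 optimal offsets outside the peak.

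Gene models were Ensembl release 115 without transposable elements (18164 genes), and sequence was RefSeq's copy of the same assembly, which held all peak coordinates. A peak matched a replicate if its summit lay in a peak of that list, and the best rank was kept. TSSs were distinct positions over all transcripts. A summit inside overlapping genes counted in each for densities. Unc-89 was matched through its RefSeq synonym. Look-ups were tested on simulated summits. Python 3.11.15, numpy 2.4.6 and matplotlib 3.10.9 were used.

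The members, lists and motifs were chosen with earlier results of these data known. Named genes were the 10 members, genes sharing a member's summit, genes of both comparison lists with an optimal promoter or intronic summit, and the 3 genes whose replicate ranks were most like those of sls. CG5611, Mtl, Cyt-c-p and gw were named after their values were seen, as the genes at the nearest optimal summits. So were the other listed muscle genes with 5 kb or more of intron, as those of that class without an optimal intronic summit. Alternatives were other promoter windows, the 1618 strongest optimal peaks, each replicate left out, coding transcripts only and other matching rules, and, chosen after seeing the data, the strongest peaks of each replicate alone.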

Additional observations from a re-analysis of the deposited data

How the results depend on the processing

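The counts are small and moved with several choices. With a 250 bp window, 0 of the 10 genes, 0 of the 35 TSSs and 0 upstream summits had an optimal promoter summit, since the summits of sls and Tm1 lay 278 and 340 bp from the nearest TSS. With 1000 bp, 4 TSSs had one, at the same 2 genes. In the 1618 strongest optimal peaks, sls was the 1 gene, 1 TSS and 1 upstream summit left, and 0 genes had an intronic summit. Among optimal peaks in the 3237 strongest of both other replicates, leaving out each replicate in turn, 1 to 2 genes had a promoter summit (Tm1 was lost without replicate 1 and without replicate 3), 1 to 2 TSSs, 1 to 2 upstream summits and 1 to 2 genes with an intronic summit (Tm1 was lost without replicate 1 and without replicate 2). Both optimal promoter summits were upstream of their TSS as reported.

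Of the 4 optimal peaks, 2 (sls and Prm) were among the 3237 strongest of every replicate, beside 60.4% of all optimal peaks. This became 4 with 6474 peaks per replicate and 0 with 1618, and 2 to 3 with a replicate left out. In the 3237 strongest peaks of a replicate alone, an alternative chosen after seeing the data, 1 gene and 1 TSS had a promoter summit in replicate 2, 4 TSSs in replicate 3, and 1 gene an intronic summit in replicate 3. The other alternatives stayed within 1.5 times the reported counts. Depth is unknown, so a missing peak is not shown to be an unbound site. Nor is a peak outside the optimal set shown to be a bound site, because the pooled list holds background by its label.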
